A study of Homo sapiens with 5 samples.

Results

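Peaks of trimethylated histone H3 lysine 9 (H3K9me3) that both the EV and the KD list of HEK293T cells held, and that a further deposited list lacked, were examined. They were chosen by position alone: a peak of the EV list on chromosomes 1 to 22 that overlapped a KD peak by at least 1 bp and no peak of the further list. Of the 23245 EV peaks on these chromosomes 4515 met this rule (19.4%), and they are called members here. HEK293T is a human embryonic kidney cell line. The study profiled H3K9me3 by chromatin immunoprecipitation and sequencing in cells labelled WT, EV and KD, with 1 library each, and took 2 input libraries, from WT and EV. The design names KCNQ1OT1_K as the target of the knockdown, and EV is read as the empty vector. The method of knockdown, and whether a line was 1 clone or a pool, are details that the sources used here do not give. The further list carries no genotype in its name, was assigned to no sample, and is called the unlabelled list. No replicate exists, so nothing below is a test between conditions. Shares carry exact Clopper-Pearson 95% intervals, which cover only counting error over the peaks, genes or windows counted. They treat these as independent, which overlapping genes are not.

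H3K9me3 is placed by the methyltransferases SUV39H1, SUV39H2 and SETDB1 and is bound by HP1 proteins. It marks the satellite repeats around centromeres, retroelements and clusters of zinc finger genes, and it also lies on the DNA-methylated allele of imprinted control regions. At the latter and at retroelements, KRAB zinc finger proteins bring in the corepressor TRIM28 and SETDB1.

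The members at gene starts can be shown as sequence. RefSeq promoter windows of 300 bases, from 250 before to 50 after an annotated start, were available for 33725 starts on chromosomes 1 to 22. Of these, 140 (0.415%) lay wholly inside a member. They belonged to 122 genes, 84 of them protein-coding, and to 107 members. The windows below were printed to show the range from CpG-dense to CpG-poor starts, with every CpG in capitals, 5′ to 3′ on the gene's strand (RefSeq, GRCh38.p14). LOC105378947, NLRP2, KL and SPAG6 are 4 of the first 6 protein-coding genes by the strength of their member, and were picked from those 6 after their values were seen. MEST, ZNF331 and H19 were picked from the imprinted genes, also after their values were seen. KD peaks covered all 300 bases of the NLRP2, SPAG6, MEST and H19 windows and 260 of the ZNF331 window, but 5 of the KL window and 0 of the LOC105378947 window.
KL, chr13:33016173-33016472, plus strand: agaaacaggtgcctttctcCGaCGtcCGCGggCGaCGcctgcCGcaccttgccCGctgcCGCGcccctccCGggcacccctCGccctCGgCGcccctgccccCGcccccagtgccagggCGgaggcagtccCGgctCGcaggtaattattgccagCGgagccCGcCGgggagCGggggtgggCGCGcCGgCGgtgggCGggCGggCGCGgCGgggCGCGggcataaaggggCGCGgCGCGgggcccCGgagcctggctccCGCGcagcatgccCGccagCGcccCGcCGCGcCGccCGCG
SPAG6, chr10:22345246-22345545, plus strand: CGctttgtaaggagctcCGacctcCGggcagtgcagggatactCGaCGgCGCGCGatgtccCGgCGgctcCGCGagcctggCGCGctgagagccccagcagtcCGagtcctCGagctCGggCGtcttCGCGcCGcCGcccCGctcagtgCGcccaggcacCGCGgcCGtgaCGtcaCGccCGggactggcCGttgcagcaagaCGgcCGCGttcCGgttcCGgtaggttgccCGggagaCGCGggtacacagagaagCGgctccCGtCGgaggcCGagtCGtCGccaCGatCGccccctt
MEST, chr7:130491808-130492107, plus strand: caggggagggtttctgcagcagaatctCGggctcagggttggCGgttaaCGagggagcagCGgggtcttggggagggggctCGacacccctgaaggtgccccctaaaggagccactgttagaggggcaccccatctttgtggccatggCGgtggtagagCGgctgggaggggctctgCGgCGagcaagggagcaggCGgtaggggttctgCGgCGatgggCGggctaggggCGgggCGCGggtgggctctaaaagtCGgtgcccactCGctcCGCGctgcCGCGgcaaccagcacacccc
ZNF331, chr19:53554363-53554662, plus strand: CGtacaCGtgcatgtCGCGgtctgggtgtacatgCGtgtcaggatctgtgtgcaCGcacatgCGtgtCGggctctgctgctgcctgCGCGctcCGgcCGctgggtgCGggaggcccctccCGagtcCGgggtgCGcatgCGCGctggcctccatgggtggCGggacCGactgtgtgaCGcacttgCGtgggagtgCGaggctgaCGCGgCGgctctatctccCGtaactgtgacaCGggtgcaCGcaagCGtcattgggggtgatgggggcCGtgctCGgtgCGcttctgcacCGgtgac
NLRP2, chr19:54965034-54965333, plus strand: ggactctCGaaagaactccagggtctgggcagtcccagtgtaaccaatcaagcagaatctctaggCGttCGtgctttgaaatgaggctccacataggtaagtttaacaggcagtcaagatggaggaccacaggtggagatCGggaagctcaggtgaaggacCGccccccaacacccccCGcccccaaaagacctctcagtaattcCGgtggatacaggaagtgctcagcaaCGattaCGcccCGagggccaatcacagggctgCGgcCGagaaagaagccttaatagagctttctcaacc
H19, chr11:2001217-2001516, minus strand: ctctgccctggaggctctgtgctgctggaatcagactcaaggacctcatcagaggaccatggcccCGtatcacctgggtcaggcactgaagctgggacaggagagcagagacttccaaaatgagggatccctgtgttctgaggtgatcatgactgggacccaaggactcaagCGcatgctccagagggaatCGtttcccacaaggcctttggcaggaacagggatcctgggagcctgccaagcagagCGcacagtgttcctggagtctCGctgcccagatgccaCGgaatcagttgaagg
LOC105378947, chr1:611248-611547, minus strand: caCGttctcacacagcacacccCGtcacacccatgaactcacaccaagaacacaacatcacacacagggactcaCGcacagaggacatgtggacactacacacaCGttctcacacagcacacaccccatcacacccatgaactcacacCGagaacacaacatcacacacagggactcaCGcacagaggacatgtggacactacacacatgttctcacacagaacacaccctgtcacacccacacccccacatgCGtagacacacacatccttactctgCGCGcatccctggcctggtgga

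The KL window held 48 CpG and was 81.3% G or C, and the SPAG6 window held 47 CpG. MEST and ZNF331 held 22 and 34. NLRP2 held 12, LOC105378947 held 9 and H19 held 6. The LOC105378947 window was a tandem repeat: shifted against itself by 104 bases, 70.9% of its letters matched.

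Promoters under members were mostly CpG-rich. With 1 window per gene, the median GC content was 68% for the 122 genes (quartiles 59.3 and 73.6), against 58.3% for all 26246 genes. The CpG observed/expected ratio, the number of CpG over that predicted from the C and G content, had a median of 0.823 under members and 0.581 over all genes. It exceeded 0.6 in 94 of the 122 genes (77.0%, interval 68.6 to 84.2), against 49.1% of all genes. The 68 genes whose window lay inside an EV peak of all 3 lists had 43 above this value (63.2%, interval 50.7 to 74.6). The 122 genes under EV peaks that neither other list held had 71 (58.2%, interval 48.9 to 67.1). The intervals of the members and of the peaks in all 3 lists overlapped. Windows of genes that lie close together share bases, so these are descriptions without a test.

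**Figure D1:**
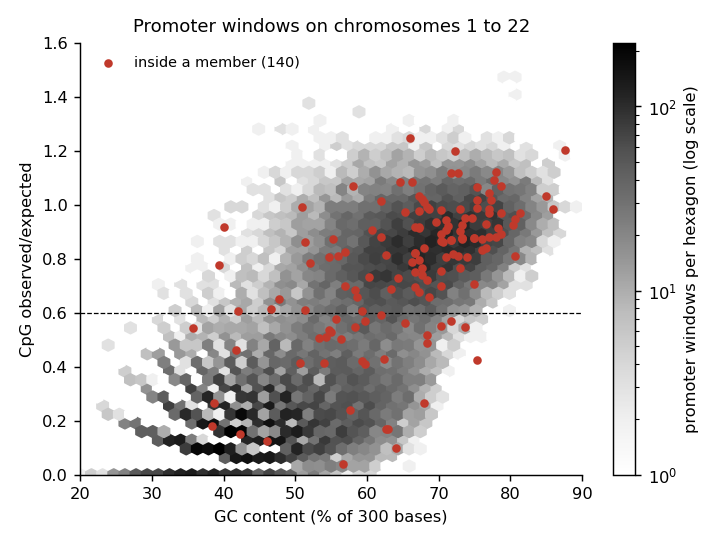
GC content (x axis, percent of 300 bases) and CpG observed/expected ratio (y axis) of RefSeq promoter windows. Grey hexagons are all 33725 windows on chromosomes 1 to 22 (darker means more windows, log scale), red points are the 140 windows inside a member, and the dashed line marks 0.6; most red points lie above it, in the GC-rich part.

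The letters TGCCGC, searched on both strands (GCGGCA on the other), are the core bound by ZFP57, a KRAB zinc finger protein that acts at imprinted regions. They occurred in 40 of the 122 genes' windows (32.8%, interval 24.6 to 41.9) and in 16.7% of all genes' windows. Under peaks of all 3 lists the share was 20.6% (interval 11.7 to 32.1) and under EV alone 21.3% (interval 14.4 to 29.6), and both intervals overlapped that of the members. Among windows with a CpG ratio above 0.6, the letters occurred in 36.4% of those inside members (39 of 107, interval 27.4 to 46.3). Over all such windows the share was 28.3%, which the members' interval includes. Here windows were counted, not genes. The MEST window held the letters 2 times and the KL window 2 times. Those of ZNF331, NLRP2, SPAG6 and H19 did not hold them. With 1 window per gene, windows with a self-match of at least 60% at a shift of 10 to 150 bases, a mark of tandem repeats, belonged to 7 of the 122 genes (5.74%, interval 2.34 to 11.5). Their share was 0.507% over all genes and 17.6% (12 of 68, interval 9.47 to 28.8) under peaks of all 3 lists. A further ZNF331 window inside the same member, not the one printed, matched itself at 69.6% and is not among the 7.

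The protein-coding starts with the strongest members, ranked by the smaller of the EV and KD −log10 p, were those of LOC105378947, LOC107984876, NLRP2 and KL. A KD peak that overlaps a member need not lie on the start: of the 140 windows inside members, 106 were touched by a KD peak (75.7%, interval 67.8 to 82.6) and 67 were wholly under KD peaks (47.9%). Of the 70 windows inside EV peaks of all 3 lists, 58 were touched (82.9%, interval 72.0 to 90.8) and 52 wholly covered (74.3%). Among the 12 genes named here, taken with 1 window each, those of LOC105378947 and LOC124903151 were not touched by KD. In the LRRN1 window 27 bases were. A second LOC124903151 window inside the same member had 236 bases under KD, and a second NLRP2 window had 0. NLRP2 encodes a NOD-like receptor expressed in oocytes, and its member spanned 54962824 to 54966514 on chromosome 19 (3691 bp). That peak had a −log10 p of 14.1 in EV, and its KD partner had 7.19. KL encodes klotho, a co-receptor for the hormone FGF23. Its member, at 33015872 to 33017032 on chromosome 13, had 6.82 in EV and 13.3 in KD. Each −log10 p ranks a peak within its own list and no difference is read between lists.

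SPAG6, a protein of the sperm tail, had a member at 22345181 to 22345770 on chromosome 10, with a −log10 p of 6.81 in EV and 8.68 in KD. BOLL, an RNA-binding protein of spermatogenesis, had 8.17 and 6.75 at its start, and a second member in its body had 26.2 and 11.6. RNF17, a Tudor domain protein of germ cells, had 10.99 and 6.31. TLX3, a homeobox factor of neurons, had 6.72 and 6.61, and its member reached 2935 bp. LRRN1, IL20RA, PLAAT3 and LOC124903151, the last from the same member as KL, completed the 12 protein-coding genes. Every one of these 12 starts lay at least 10.7 kb from any peak of the unlabelled list, and TLX3 and RNF17 lay 1181 and 1635 kb away.

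Before positions are compared, the unlabelled list itself has to be described, since absence from it defines the members. On chromosomes 1 to 22 it held 13242 peaks, against 12081 in KD. Gene-free stretches, defined as 2 Mb or more without any RefSeq gene, numbered 26 and made up 5.87% of the chromosomes. They contained 51.6% of the peaks of the unlabelled list, 48.1% of the KD peaks and 26.0% of the EV peaks. In these stretches 78.1% of the unlabelled list's 6834 peaks overlapped an EV peak. Outside them 26.0% of its 6408 peaks did (interval 24.9 to 27.1). The unlabelled list thus had little overlap with EV outside gene-free stretches to begin with. The reads behind the lists are unknown, so depth cannot be set beside these values.

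Among EV peaks that KD also held, absence from the unlabelled list depended on where the peak lay. Of 8820 such peaks, 4515 were absent (51.2%, interval 50.1 to 52.2). In gene-free stretches this was 628 of 3966 (15.8%, interval 14.7 to 17.0), and elsewhere 3887 of 4854 (80.1%, interval 78.9 to 81.2). EV peaks that KD lacked were absent from the unlabelled list still more often, with 54.1% of 2087 in gene-free stretches and 94.8% of 12338 elsewhere. Peaks found in KD were therefore found in the unlabelled list more often than the other EV peaks, in both kinds of sequence.

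Outside gene-free stretches the share absent changed little over most of the range of strength. It was 83.5% at an EV −log10 p below 4 (421 of 504) and 87.6% between 10 and 15 (615 of 702). It was 80.8% between 20 and 30, 65.5% between 30 and 50, and 32.8% at 50 or more (85 of 259, interval 27.1 to 38.9). In gene-free stretches it fell from 42.9% (79 of 184) below 4 to 12.2% between 10 and 15 and 7.44% at 50 or more (9 of 121, interval 3.46 to 13.7). The 2 curves did not meet in any bin, as the plot of absence by strength shows. These values describe the choice of members and test nothing.

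**Figure D2:**
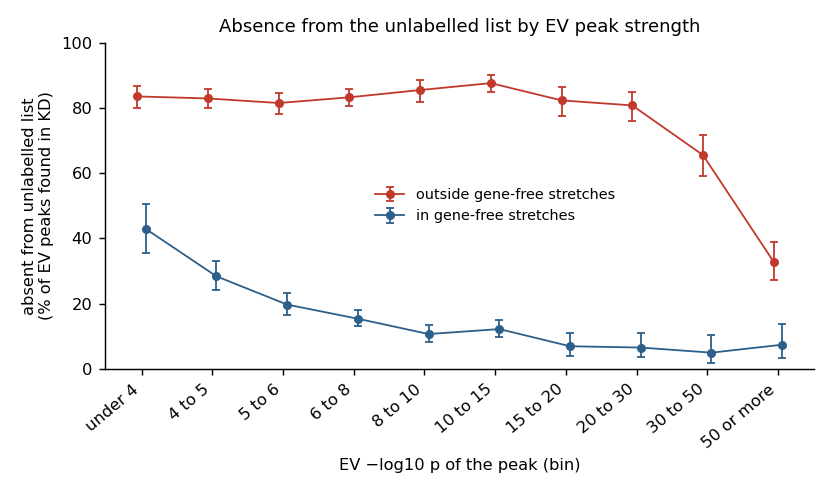
Share of EV peaks found in KD that the unlabelled list lacks (y axis, percent) by bin of EV −log10 p (x axis), outside (red) and in (blue) gene-free stretches, with exact 95% intervals. The red points stay between 80.8% and 87.6% up to a −log10 p of 30 and drop to 32.8% in the last bin, and the blue points lie below them throughout.

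Width divided the peaks as well. Outside gene-free stretches 91.3% of the EV and KD peaks under 750 bp were absent from the unlabelled list (906 of 992). This was 61.2% between 2 and 3 kb, and 14.6% at 10 kb or more (6 of 41, interval 5.57 to 29.2). A wider peak has more chance to touch any other peak, so width and absence are linked by the overlap rule. At a −log10 p of 50 or more outside gene-free stretches, 0 of the 32 peaks of at least 3 kb were absent (interval up to 10.9%), against 85 of 227 narrower ones (37.4%, interval 31.1 to 44.1). In gene-free stretches the order was the opposite, with 6 of 46 wide peaks absent (13.0%, interval 4.94 to 26.3) and 3 of 75 narrower ones (4%, interval 0.833 to 11.2), and these intervals overlapped.

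Members were narrower than the peaks of all 3 lists. Their median width was 1224 bp (quartiles 813 and 1659), against 3573 bp for the 4305 EV peaks in all 3 lists and 834 bp for the 12826 peaks in EV alone. Together they covered 6.71 Mb, or 13.8% of the EV peaks' length. Their median EV −log10 p was 7.10, against 8.43 for the peaks of all 3 lists and 3.93 for EV alone. The median fold enrichment over the caller's background, the authors' value, was 3.46, against 3.73 and 2.98. These medians pool both kinds of sequence: 13.9% of members and 77.5% of the peaks of all 3 lists lay in gene-free stretches. Outside these stretches 241 of 3887 members had an EV −log10 p of at least 30, against 256 of 967 peaks of all 3 lists. Median widths there, by bin of strength, ran from 896.5 to 1479 bp for members. For peaks of all 3 lists they ran from 1839.5 to 2031 bp. A median of 69.0% of a member's length was covered by KD peaks (quartiles 44.5 and 90.1). The strongest overlapping KD peak was described by a −log10 p of 4.93 and a fold enrichment of 3.69, both medians.

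Outside gene-free stretches, members were grouped by EV strength. The 241 members with an EV −log10 p of at least 30 were of similar size, with a median of 1479 bp and quartiles of 1221 and 1775, and a median EV fold enrichment of 7.74. KD covered a median of 88.3% of their length. Of these, 88 had their midpoint in a protein-coding gene (36.5%, interval 30.4 to 42.9), and 1 touched a promoter window (0.415%, interval 0.0105 to 2.29). The 974 members below 5 had a median width of 896.5 bp and a fold enrichment of 2.76. Of them 73 touched a promoter window (7.49%, interval 5.92 to 9.33), and 420 lay in a protein-coding gene (43.1%). Between these ends the share at promoters was 4.71% (−log10 p 5 to 10), 1.49% (10 to 20) and 0 of 252 (20 to 30, upper bound 1.45%). Among peaks of all 3 lists at 30 or more the share was 3.52% (9 of 256, interval 1.62 to 6.57).

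The 10 strongest members by the smaller −log10 p of both lists held 1 peak in a protein-coding gene. The first, at 107827163 to 107829610 on chromosome 2, lay in RGPD4, a gene with near-identical copies, so reads there may be shared. It had a −log10 p of 97.7 in EV and 58.3 in KD, and a KD peak covered all of it. The next, at 94219811 to 94221601 on chromosome 7, was 173 kb from COL1A2, a fibrillar collagen gene. It had a fold enrichment of 12.05 in EV and 10.9 in KD, each within its own list. Of the 10, 4 lay in gene-free stretches, 3 of those on chromosome 3 and the other on chromosome 4, each within 4.83 kb of a peak of the unlabelled list. The other 6 were 58.0 to 2874 kb away from one. The peak at 10269953 to 10272439 on chromosome 21, with an EV fold enrichment of 20.4 over 2487 bp, was also a member. It lay 58.0 kb from the unlabelled list's nearest peak.

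The widest member was 20679 bp wide, at 20788241 to 20808919 on chromosome 18, with a −log10 p of 5.10. KD peaks covered 7.37% of it. The second, also on chromosome 18, was 16336 bp wide and covered to 11.5%, and the last of the 5 covered to 7.05%. The third, of 15750 bp on chromosome 3, lay 15.6 kb from PPP1R2, a phosphatase inhibitor gene, and 3 KD peaks covered 21.9% of it. A single small KD peak was thus enough for some wide peaks to enter.

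Most members lay well away from the unlabelled list. The median distance to its nearest peak was 183269 bp outside gene-free stretches and 2724.5 bp in them. Of all members, 2479 (54.9%) were at least 100 kb away and 183 (4.05%) within 1 kb. The members nearest to the boundary were 4, 5 and 6 bp from a peak of the unlabelled list, on chromosomes 3, 21 and 5, with EV −log10 p of 4.70, 4.40 and 4.38. The peaks left out by the smallest overlap shared 1, 5 and 5 bp with it, on chromosomes 8, 13 and 3, with 5.71, 6.26 and 3.83.

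By chromosome, the share absent outside gene-free stretches was 69.6% or higher on all but 2 of the 22. The exceptions were chromosome 21 with 60 of 117 (51.3%, interval 41.9 to 60.6) and chromosome 22 with 100 of 150 (66.7%, interval 58.5 to 74.1), and chromosome 1 had the highest value, 88.9%. In gene-free stretches chromosomes 6, 2 and 3 stood highest, with 28 of 50 (56.0%, interval 41.3 to 70.0), 53 of 117 (45.3%) and 24 of 55 (43.6%). Chromosomes 13, 14 and 8 stood lowest with 2.11%, 2.03% and 2.92%. The intervals of chromosomes 6 and 14 did not overlap, but these were picked as the highest and lowest of the 22. That is not a test of a difference between chromosomes. Members per Mb ran from 0.988 on chromosome 13 to 4.13 on chromosome 19. Of the members, 560 (12.4%, interval 11.5 to 13.4) lay within 5 Mb of a chromosome's end. Outside gene-free stretches this was 14.4% of members and 27.8% (interval 25.01 to 30.8) of peaks in all 3 lists.

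**Figure D3:**
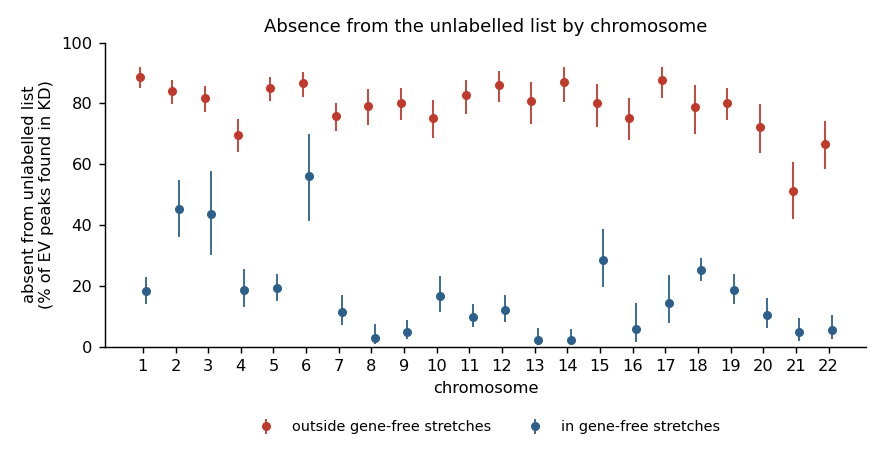
Share of EV peaks found in KD that the unlabelled list lacks (y axis, percent) on each of chromosomes 1 to 22 (x axis), outside (red) and in (blue) gene-free stretches, with exact 95% intervals. Red points lie above blue ones on every chromosome, and the blue points of chromosomes 2, 3 and 6 stand above the others.

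Members were spread over genes much as the genome is. By midpoint, 1722 of 4515 lay in a protein-coding gene (38.1%, interval 36.7 to 39.6), against 7.11% of the peaks of all 3 lists and 40.2% of those in EV alone. Outside gene-free stretches these shares were 44.3%, 31.6% and 44.1%, and protein-coding gene bodies span 44.7% of that sequence. Genes of long non-coding RNAs held 518 members, 13.3% of those outside gene-free stretches, where they held 13.5% of all EV peaks, so the members were near the background share. Promoter windows were touched by 160 members, which is 4.12% of those outside gene-free stretches (interval 3.51 to 4.79). This was 5.69% (interval 4.31 to 7.34) for peaks of all 3 lists and 1.55% for EV alone (interval 1.33 to 1.79).

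Of 19126 protein-coding genes, 1551 had a member somewhere in the body (8.11%). In 1319 of them it was a single one, in 169 there were 2, and 63 had 3 or more. PTPRN2 stood first with 42. It encodes a receptor-type phosphatase of secretory granules in neurons and endocrine cells, and spans 157539056 to 158587823 on chromosome 7. Members covered 8.94% of it, all EV peaks 25.1%, KD peaks 9.51% and the unlabelled list 4.59%. Besides the members, 24 EV peaks there were in all 3 lists. The run of members at PTPRN2, joined at gaps up to 100 kb, was 1118 kb long with 44 members among 129 EV, 80 KD and 45 unlabelled peaks. The next 11 genes by number, from 13 to 10 members each, were clustered protocadherins that overlap and share peaks.

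**Figure D4:**
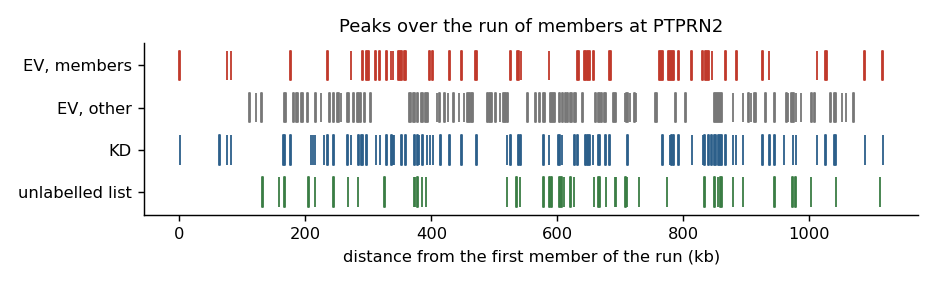
Peaks over the longest run of members, at PTPRN2 on chromosome 7 (x axis, kb from the first member of the run). Rows show the 44 members, the other EV peaks, the 80 KD peaks and the 45 peaks of the unlabelled list; EV peaks shared with the unlabelled list lie in several groups along the run, with long stretches between them that hold members and peaks of EV alone.

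Most members stood alone. Joined at 100 kb, they formed 3098 runs, of which 2457 were single members. Runs of 5 or more numbered 75, held 720 members, and lay in gene-free stretches in 42 cases. After PTPRN2 the largest were 32 members on chromosome 18 (16362594 to 17329472, gene-free) and 26 at the protocadherin beta and gamma genes. Next came 25 at 90706788 to 91357139 on chromosome 3, with no protein-coding gene, and 22 on chromosome 19 (25541771 to 26134077, gene-free). The chromosome 3 run counts as outside gene-free stretches, though a member in it lay 1448 kb from the nearest protein-coding gene. The sequence called outside thus includes some that is poor in protein-coding genes. In gene-free runs the unlabelled list was not absent: it had 140 peaks along the run on chromosome 18 and 79 along that on chromosome 19.

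Gene lists were counted by whether a member lay in the body, beside the 8.11% of all protein-coding genes. A longer gene has more room for a member, and the lists were not matched for gene length. How far length accounts for differences between lists was not tested. Cover by members is the extent of the EV peaks, and KD peaks can cover less or more of the same gene. The clustered protocadherins, neuronal adhesion proteins encoded on chromosome 5, had 43 of 53 genes. Many of their bodies overlap, so a single member can count for several of them. Their 38 EV and KD peaks included 35 that the unlabelled list lacked (92.1%, interval 78.6 to 98.3). That interval includes the 84.4% for all protein-coding genes. PCDHB6, PCDHB5, PCDHB3 and PCDHB12 were covered by members to 26.0%, 24.3%, 22.5% and 21.0%. Other cadherins and protocadherins had 11 of 33 genes (33.3%, interval 18.0 to 51.8). PCDH8, a protocadherin of the nervous system, was covered to 26.8%, and CDH3, CDH7 and PCDH17 to 4.44%, 0.943% and 2.16%. KD peaks covered 30.8%, 3.96%, 0.922% and 2.76% of them, in that order. The member in CDH7 had an EV −log10 p of 28.9 and 14.6 in KD.

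Homeobox and paired-box genes outside the HOX clusters had 29 of 142 genes (20.4%, interval 14.1 to 28.0). An EV peak found in all 3 lists lay in 2 of the 142, close to the share over all protein-coding genes (278 of 19126). Homeobox and paired-box genes encode factors that set cell identity in the embryo. HMX2 was covered by its member to 87.5%, TLX3 to 72.5%, SIX6 to 48.0% and NKX2-1 to 41.4%. KD peaks covered 76.8%, 100%, 54.9% and 43.2% of the same genes, and the unlabelled list had none in any of them. Of their 35 EV and KD peaks, 33 were absent from the unlabelled list (94.3%, interval 80.8 to 99.3), against 84.4% for all protein-coding genes. That interval includes 84.4%. MEIS2, a TALE homeobox factor picked after its value was seen, held the strongest member of the list, with −log10 p of 62.6 in EV and 28.6 in KD over 1833 bp.

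Other developmental factors had 20 of 121 genes (16.5%, interval 10.4 to 24.4). FOXB2, a forkhead factor, was covered to 93.5%, FOXL3 to 62.9%, SOX17, a factor of endoderm, to 54.6%, and FOXE1, a factor of the thyroid, to 54.5%. KD peaks covered 91.2%, 49.6%, 56.1% and 52.0% of them. Their members had EV −log10 p of 4.30, 3.73, 6.83 and 5.53, against a lower quartile of 4.94 over all members. In the HOX clusters 5 of 39 genes had members (12.8%, interval 4.30 to 27.4, which includes 8.11%). Every one was in the HOXD cluster: HOXD1, HOXD11, HOXD9, HOXD12 and HOXD3. All 6 EV and KD peaks of HOX genes were absent from the unlabelled list (interval 54.1 to 100). That interval includes the 84.4% of all protein-coding genes. The nearest peak of the unlabelled list lay at least 336.5 kb from the strongest member of each gene.

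**Figure D5:**
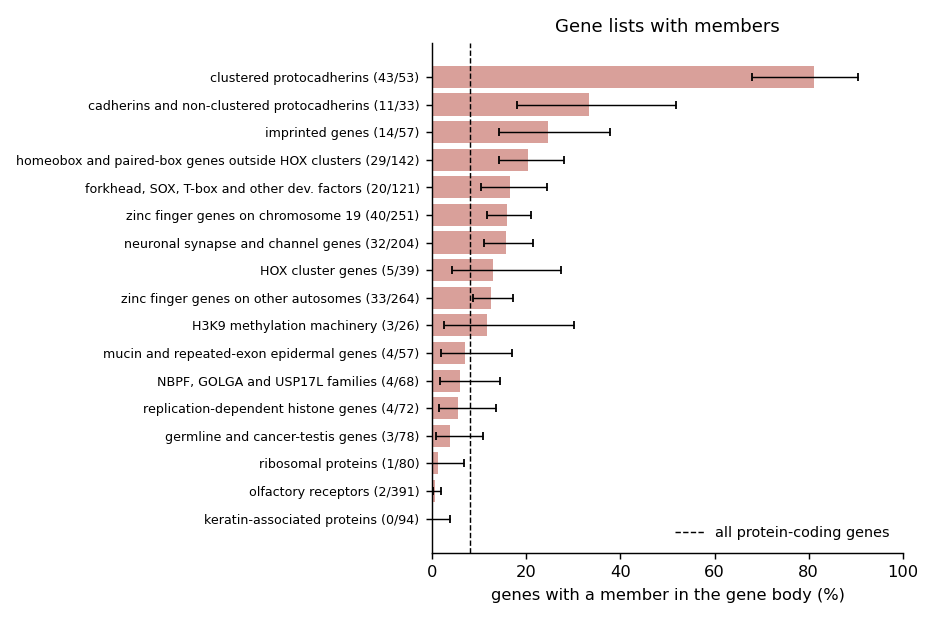
Share of the genes of each list that hold a member in the gene body (x axis, percent; bars with exact 95% intervals, with counts in the labels). The dashed line is the share of all protein-coding genes, 8.11%. Clustered protocadherins reach 81.1%, and keratin-associated, olfactory receptor and ribosomal protein genes lie below it. Gene length was not taken into account. Overlapping genes can share a member, as many clustered protocadherins do, so the intervals do not rest on independent genes.

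Imprinted genes, expressed from 1 parental allele, had 14 of 57 genes with a member (24.6%, interval 14.1 to 37.8), from 13 of 14 EV and KD peaks. The interval of that last share (92.9%, 66.1 to 99.8) includes the 84.4% of all protein-coding genes. NNAT, a proteolipid gene inside BLCAP, was covered to 63.7% by a member at 37521197 to 37522805 on chromosome 20, with −log10 p of 5.94 in EV and 4.88 in KD. The same peak counted for BLCAP. KD peaks covered 12.6% of NNAT. H19, a non-coding RNA, was covered to 22.5%, and its member reached past the start shown above. Of the H19 body, KD peaks covered 5.12%. AIRN, the RNA antisense to IGF2R, was covered to 12.3%, and by KD peaks to 47.5%; its member of 536 bp also counted for IGF2R. The member of MEST, a hydrolase gene expressed from the paternal allele, spanned 130491390 to 130493084 on chromosome 7 and contained the MEST window shown above. It had 6.27 in EV and 6.76 in KD, and the unlabelled list had no peak within 815 kb. ZNF331 had 3 members. PEG3 and ZIM2 shared 1 member, and the unlabelled list had peaks elsewhere in both genes. SNRPN, MEG3, FAM50B, WT1, INPP5F and IGF2R made up the rest, and these last were named after their values were seen.

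In the domain of KCNQ1OT1 on chromosome 11, from TSPAN32 to OSBPL5, 2 of the 3 EV peaks were members. The share over all EV peaks was 19.4%, and 3 peaks are too few to compare with it. The peak at 2353058 to 2354450 lay in CD81-AS1, a non-coding gene, with −log10 p of 8.28 in EV and 3.44 in KD, 237 kb from the unlabelled list. The other spanned 2937965 to 2938786 in no annotated gene, with 6.67 and 4.66. The remaining EV peak, in KCNQ1 and KCNQ1OT1, was not a member because KD did not overlap it. It was 509 bp wide with an EV −log10 p of 3.88, and lay 0.212 kb from a peak of the unlabelled list.

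Zinc finger genes on chromosome 19 had 40 of 251 genes with a member (15.9%, interval 11.6 to 21.1). They had 23 with a peak of all 3 lists (278 of 19126 over all protein-coding genes). Of their 65 EV and KD peaks, 42 were absent from the unlabelled list (64.6%, interval 51.8 to 76.1), below the 84.4% of all protein-coding genes. ZNF551, ZNF426, ZFP30 and ZNF57 were covered by members to 18.4%, 18.0%, 13.1% and 10.6%, and by KD peaks to 17.9%, 2.32%, 3.04% and 3.76%. On other chromosomes 33 of 264 zinc finger genes had a member (12.5%, interval 8.76 to 17.1), with ZNF605 at 33.4% and ZNF354A at 21.5%. Of these 2 genes, KD peaks covered 10.1% and 7.60%. Genes of H3K9 methylation had 3 of 26. In SUV39H2, one of the methyltransferases of the mark, the member at 14893190 to 14894509 on chromosome 10 had −log10 p of 88.8 in EV and 26.7 in KD, 907 kb from the unlabelled list. HDAC1, a histone deacetylase, had 2 members and EHMT1, which dimethylates the same lysine, had 1.

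Genes of neuronal synapses and channels had 32 of 204 (15.7%, interval 10.98 to 21.4). Of their 130 EV and KD peaks, 89 were absent from the unlabelled list (68.5%, interval 59.7 to 76.3), 42 of them in PTPRN2. This share was below the 84.4% of all protein-coding genes. Mucin and repeated-exon epidermal genes had 4 of 57, with FLG, the skin barrier protein filaggrin, covered to 43.8% and MUC17 to 21.4%. KD peaks covered 11.3% of FLG and 0.921% of MUC17. Only 4 of the 15 EV and KD peaks of that list were absent from the unlabelled list (26.7%, interval 7.79 to 55.1). For the NBPF, GOLGA and USP17L families, which have near-identical copies and uncertain reads, it was 6 of 19 (31.6%, interval 12.6 to 56.6). Histone genes had 4 of 72, from 2 members that each lay over 2 genes: H2BC14 with H2AC14, and H2BC3 with H3C3. In H3C3 there was no KD peak. Germline and cancer-testis genes had 3 of 78 (PIWIL3, BOLL and CTCFL). SPAG6 and RNF17, which had members at their starts, were not on that list, so its share does not cover every germline gene. Olfactory receptors had 2 of 391, ribosomal proteins 1 of 80 and keratin-associated proteins 0 of 94, which allows a share of up to 3.85%.

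Among protein-coding genes of at least 5 kb, the largest share of the body under members was at SSTR1, a somatostatin receptor, with 49.3%, and KD peaks covered 13.7%. DMRTA2, a DMRT factor of the brain, had 45.9%, FLG 43.8%, ISL2, a homeobox factor of motor neurons, 37.2% and SKOR1, a neuronal corepressor, 36.3%. KD peaks covered 30.3%, 11.3%, 36.6% and 38.4% of these, in that order. OTX1 had 34.0%, ZNF605 33.4%, MNX1 31.7%, DAND5, a BMP and nodal antagonist, 31.5% and CCK, the precursor of cholecystokinin, 29.3%. For these the cover by KD peaks was 20.6%, 10.1%, 6.21%, 30.6% and 16.0%. In 9 of these 10 genes the unlabelled list had no peak. The exception was ZNF605, where it covered 5.42%.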

How the data were processed

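H3K9me3 ChIP-seq libraries of HEK293T cells (WT, EV, KD) and inputs (WT, EV) were made. Bowtie2, MACS2 and GRCh38 are named in the submitters' processing notes. For versions, calling options, controls and filters the answer is the same: not given in the sources used here. Analysed were the authors' deposited fold enrichment, a ratio over the caller's background, and their deposited −log10 p and −log10 q, whose lowest q value is 1.01 in EV and in KD. For the list without a genotype, positions alone were used, as deposited by the authors. No read counts are in these lists, so depth is unknown.

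Overlaps, covered bases and distances were computed in Python 3.11.15 (numpy 2.4.6, pandas 2.3.3), tested on simulated data and against bedtools 2.31.1. Intervals came from scipy 1.17.1 and plots from matplotlib 3.10.9. Genes and promoter windows came from RefSeq, GRCh38.p14, whole gene spans without exons. No genome sequence was used here, so peaks were not read for repeats. Coordinates count from 1.

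The members, lists and rules were chosen with earlier results of these data known, and list patterns were corrected after counts were seen (ISLR-type, POU2AF-type, SKOR and TDRD10 matches taken out of the homeobox and germline lists, and the PRAMEF pattern changed). Named were the 10 strongest and 5 widest members, the 5 largest runs, the 12 strongest protein-coding starts, the 10 most covered genes of at least 5 kb, and up to 4 genes of each list. Beyond that rule, MEIS2, a further HOX gene and the remaining imprinted genes were named after their values were seen. Promoter features, chromosome ends, tandem repeats, TGCCGC and members per gene were partly added after the data were seen.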

Additional observations from a re-analysis of the deposited data

Results flagged for a closer look

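Sequences outside chromosomes 1 to 22 were not part of the rule, and peaks of the same kind occurred there. On X, 296 of 429 EV peaks found in KD were absent from the unlabelled list (69.0%, interval 64.4 to 73.3). On the other sequences 325 of 644 were (50.5%, interval 46.5 to 54.4). These come from the same 3 lists, on sequences outside the rule.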

How the results depend on the processing

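Every group had 1 library and the lists hold no read counts, so no difference between lists has a replicate check and the effect of depth was not tested. No paired analysis was possible because each group had 1 library. All alternatives below gave a share absent from the unlabelled list, a share in protein-coding genes and a share in gene-free stretches, in that order, beside 51.2%, 38.1% and 13.9%. With KD covering at least 50% of the EV peak the first was 54.3% and the last 10.6%. With no unlabelled peak within 1 kb they were 49.1% and 11.9%, and within 5 kb 43.2%, 42.9% and 4.38%. At a −log10 q of at least 2 there were 2612 members with 44.6%, 39.8% and 11.2%, and with EV and KD fold enrichments no lower than 3 there were 2952 with 46.0%, 36.3% and 16.2%. Joining peaks within 3 kb gave 59.7%, 41.2% and 7.56%, and counting KD peaks gave 48.9%, 33.9% and 22.7%. Leaving out gene-free stretches gave 80.1% and 44.3%. Adding X gave 4811 members with 52.0%, 37.8% and 13.4%, within the intervals of the values above. The cause of these shifts was not tested.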

Other observations

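Outside the 5 largest runs, members also gathered at CNTNAP3 on chromosome 9 (9 members, 1 unlabelled peak). The protocadherin alpha genes on chromosome 5 held a run of 13 members with 15 EV peaks, 15 KD peaks and 0 unlabelled peaks. A run of 8 members at 19168533 to 19392165 on chromosome 14 held no protein-coding gene and no unlabelled peak. These runs were named after their values were seen.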
